A study of Mus musculus with 4 samples.

Results

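The Rab GTPases were examined across the cell states and cell types of mouse medulloblastoma. Members were all genes whose symbol is Rab followed by a number and at most 1 letter, which gave 59 of the 27998 genes counted. Partner genes with longer names, such as Rabgap1, fall outside that rule. Together the members held 29911 UMIs (unique molecular identifiers, each marking 1 captured transcript), or 0.292% of all UMIs of the analysed cells. Rab GTPases are small membrane-bound switches. Loaded with GTP by exchange factors, each marks a particular membrane and recruits effectors that move, tether and fuse vesicles, and GTPase activating proteins then switch it off. GDP dissociation inhibitors (GDI) extract the GDP-bound form from membranes and hold it in the cytosol. In neurons the family is best known for the Rab3 proteins on synaptic vesicles, and in the hedgehog pathway for Rab23 and Rab34, which act at the primary cilium.

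The cells came from cerebellar tumours of 4 littermates at postnatal day 20, and all 4 carried the Atoh1-cre:SmoM2 genotype, so no other genotype or normal cerebellum entered a comparison. In this model Cre made under Atoh1 control turns on SmoM2, an always-active form of the hedgehog transducer Smoothened, in precursors of granule neurons, and medulloblastoma of the Sonic hedgehog (SHH) type follows. The tissue was dissociated with an enzyme, red cells were lysed, dead cells were removed by sorting, and 1 droplet-based 3′ library was made per mouse. Since the series has 1 group of mice, the comparisons are between classes of cells of the same animals, with n = 4 mice throughout.

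The libraries held 1679285 to 3801197 UMIs. After filtering, 680 to 1363 cells per mouse (4101 in all) were analysed, with median depths of 1699 to 2564 UMIs per cell. Progenitor-like cells numbered 3287 and differentiating granule-like cells 404, and both together are called granule-lineage-like. Astroglia-like cells numbered 153, oligodendrocyte-lineage-like cells 143 and myeloid-like cells 37, and 72 cells of a mixed cluster and 5 choroid-or-ependymal-like cells entered no comparison. The differentiating class held 52.9 to 66.3 UMIs per 10000 of 10 markers of young neurons (Cntn2, Stmn2, Tubb3 and others), against 17.9 to 20.9 in the progenitor-like class. The 15 myeloid markers were all detected in the myeloid-like class at 346 to 469 UMIs per 10000, and 11 of 12 astroglial markers in the astroglia-like class at 23.1 to 52.1 UMIs per 10000, with Gdf10 at 0. Only 9 barcodes of analysed cells occurred in more than 1 library. Malat1, an abundant nuclear RNA, was low in a progenitor-like cluster of 743 cells (15.6 UMIs per 10000, median depth 1110 UMIs), in a differentiating cluster of 96 cells (30.2) and in an astroglia-like cluster of 87 cells (30.8). The 743 cells carry their name because fewer than 3 markers of any 1 other cell type passed in them. The name also required at least 3 granule-lineage or progenitor markers in 10% of cells each, and 9 reached that. Their progenitor markers nevertheless had a median log2 ratio of -0.61 to the granule lineage, and their granule-lineage markers summed to 13.0 UMIs per 10000. None of their 10 leading genes (Fabp7 and Mt1 among them) was a progenitor marker. Results are therefore also given without this cluster where they differ.

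Most of the family was thinly counted. Of the 59 members, 12 had fewer than 10 UMIs, Rab19 and Rab44 among them with none, and 9 had more than 1000: Rab2a, Rab14, Rab1a, Rab18, Rab6a, Rab11b, Rab10, Rab11a and Rab7. These 9 are general regulators of transport between endoplasmic reticulum (ER), Golgi, endosomes and lysosomes. For 37 members the counts passed the filter on low values in at least 1 comparison, and 26 passed it in all 5. The 22 that passed in none were Rab19, Rab44, Rab17, Rab42, Rab37, Rab7b, Rab4b, Rab38, Rab20, Rab26, Rab27a, Rab9b, Rab27b, Rab43, Rab40b, Rab29, Rab3b, Rab25, Rab21, Rab39, Rab36 and Rab35, the last with the most UMIs, 109. Rab27a, which docks secretory granules and lysosome-related organelles, had 8 UMIs, all in progenitor-like cells. In the 404 differentiating cells it had 0.

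The family's summed level was higher in differentiating than in progenitor-like cells in every mouse. Levels are given in CPM, the UMIs of a gene scaled to a total of 1000000 for the class in each mouse. The sum over all members was 2879, 2869, 2873 and 2743 CPM in the progenitor-like cells of mice 1 to 4 and 3777, 3533, 3534 and 3380 CPM in their differentiating cells. The 2 ranges did not overlap. The 11 members of neuronal and regulated secretion summed to 205 ± 20.0 (SD) and 506 ± 61.9 CPM, again without overlap. Much of this sum lay in Rab3a and Rab6b. They held 217 and 90 of these members' 463 UMIs in differentiating cells, and 455 and 269 of 1757 in progenitor-like cells. The 13 members of ER and Golgi transport summed to 1296 ± 34.1 and 1526 ± 113 CPM, the 16 of early and recycling endosomes to 848 ± 25.1 and 990.1 ± 73.9 CPM, and the 9 of late endosomes and lysosome-related organelles to 281 ± 17.2 and 351 ± 29.4 CPM. Only the 3 cilium members summed to less in the differentiating class, 148 ± 22.5 CPM against 182 ± 13.9 CPM, with overlapping ranges. These sums are descriptions and were not tested.

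Between differentiating and progenitor-like cells, 8 of the 35 members tested were higher and 0 lower in edgeR's quasi-likelihood test on UMI counts summed per mouse and class (adjusted p under 0.05 over all genes tested). That is 22.9% of the members tested, beside 9.61% of all 7302 genes called higher, 10.6% called lower and 20.2% called in either direction. The members' median log2 fold change was 0.20, against -0.01 over all genes tested, and 26 of the 35 were positive. At an unadjusted p under 0.05, 11 members were higher and 1 was lower. By role, the calls fell on 3 of 6 tested members of neuronal and regulated secretion, 3 of 12 of ER and Golgi transport, 1 of 9 of early and recycling endosomes, 1 of 4 of late endosomes, 0 of 3 of the cilium and 0 of 1 without a role assigned here.

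The synaptic vesicle member Rab3a showed the largest log2 fold change of the 35. Its level was 60.0, 58.2, 47.4 and 48.9 CPM in the progenitor-like cells of mice 1 to 4 and 279.8, 215, 203 and 252 CPM in the differentiating cells. Every differentiating value lay above every progenitor value, and the log2 fold change was 2.16 ± 0.15 (SE of the fit, adjusted p = 4.2e-32, edgeR). The low-Malat1 cluster of the differentiating class held 386 CPM of Rab3a and the other cluster of that class 214 CPM. Of its paralogs, Rab3d (33 UMIs in the differentiating class) had a log2 fold change of 0.82 ± 0.32 (adjusted p = 0.0515) and Rab3c, another vesicle member, 0.33 ± 0.24 (adjusted p = 0.376). Rab3b, with 28 UMIs in all cells, was not tested.

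Rab6b, the brain form of the Golgi regulator Rab6, followed. It was counted at 26.6, 40.0, 22.8 and 36.0 CPM in progenitor-like cells and 89.9, 107, 102 and 104 CPM in differentiating cells. The groups did not overlap, and the log2 fold change was 1.60 ± 0.21 (adjusted p = 3.73e-11, edgeR). Rab33a, a neuronal member linked to vesicle delivery during axon growth, was at 13.9, 11.4, 13.2 and 13.7 CPM in progenitor-like cells and at 29.98, 14.003, 12.7 and 43.3 CPM in differentiating cells. Mice 1 and 4 carried that difference, mouse 2 differed little and mouse 3 went the other way. Its log2 fold change was 1.15 ± 0.38 (adjusted p = 0.0171), from 27 UMIs in the differentiating class, and that of its paralog Rab33b was -0.28 ± 0.51 (adjusted p = 0.769). Rab39b, the remaining tested member of this role, was at 0.29 ± 0.27 (adjusted p = 0.519).

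Among the ER and Golgi members, Rab6a, which directs traffic through and out of the Golgi, was at 161, 160.0, 216 and 162 CPM in progenitor-like cells and 285, 233, 292 and 265 CPM in differentiating cells. The groups did not overlap although mouse 3 stood apart among the progenitor values. Its log2 fold change was 0.65 ± 0.12 (adjusted p = 3.16e-06, edgeR). Rab30, a Golgi member, was at 17.2, 16.1, 12.3 and 13.7 CPM in progenitor-like cells and at 55.0, 37.3, 38.1 and 40.8 CPM in differentiating cells. These did not overlap either, with a log2 fold change of 1.51 ± 0.33 (adjusted p = 9.95e-05). Rab2b, the rarer of the ER-to-Golgi members Rab2a and Rab2b, was at 23.98, 17.7, 10.5 and 19.3 CPM against 29.98, 42.0, 38.1 and 40.8 CPM. It was higher in all 4 mice, by 0.99 ± 0.32 on the log2 scale (adjusted p = 0.0162), and its paralog Rab2a, the most counted member, was at 0.22 ± 0.10 (adjusted p = 0.13). The other 8 tested members of this role lay between -0.55 (Rab13, lower in all 4 mice, adjusted p = 0.331) and 0.21 (Rab18).

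The endosomal calls were smaller. Rab7, which governs fusion of late endosomes with lysosomes, was at 140.1, 129.9, 173 and 115 CPM in progenitor-like cells and 229.8, 149, 216 and 166 CPM in differentiating cells. The ranges overlapped between mice while each mouse rose, with a log2 fold change of 0.46 ± 0.14 (adjusted p = 0.00743, edgeR). Rab11a, a marker of recycling endosomes, was at 158, 155, 127 and 139 CPM against 239.8, 182, 165 and 189 CPM. Its ranges did not overlap and its log2 fold change was 0.42 ± 0.13 (adjusted p = 0.014). The paralog Rab11b had 0.32 ± 0.13 (adjusted p = 0.0656) and was higher in all 4 mice. The early endosome genes Rab5a, Rab5b and Rab5c were at -0.09, 0.41 and 0.35, none called.

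The cilium members did not pass the test. Rab34 was at 86.9, 63.4, 84.2 and 58.8 CPM in progenitor-like cells and 74.9, 37.3, 25.4 and 50.9 CPM in differentiating cells. It was lower in each mouse with overlapping ranges, at a log2 fold change of -0.46 ± 0.23 (adjusted p = 0.16). Rab23, a negative regulator of hedgehog signalling, was at 0.16 ± 0.37 (adjusted p = 0.824) and Rab28 at -0.27 ± 0.20 (adjusted p = 0.381).

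The calls differed in how far they rested on single mice and settings. Those of Rab3a and Rab6b were kept in all 19 alternatives run, and those of Rab30 and Rab6a in all but the limit of 1000 genes per cell. Without mouse 4 the number of called members dropped from 8 to 4. Rab33a was lost without mouse 1 (adjusted p = 0.0517) and was not among the 4 called without mouse 4. It was tested in 14 of the 19 alternatives and lost in 5. Among these were cell cycle regressed out (0.0826) and Rab genes and partner lists kept in the clustering (0.0696). Rab2b was lost without mouse 2 (0.0851), mouse 3 (0.052) or mouse 4 (0.204). Rab7 was lost without mouse 1 (0.124) or mouse 4 (0.14), and Rab11a without mouse 1 (0.134) or mouse 4 (0.163). Both were also lost with Rab genes and partner lists kept in the clustering (0.177 for Rab7, 0.0598 for Rab11a). The same held at no more than 5% mitochondrial UMIs (0.0996 and 0.0748). Without the differentiating cluster of low Malat1, Rab11a was lost too (0.34, adjusted p = 0.076, edgeR). Of the 19 alternatives, Rab7 was lost in 8 and Rab11a in 9. Without the replicate block 5 members were called, Rab2b, Rab7 and Rab11a being lost with adjusted p of 0.051, 0.186 and 0.0981, and DESeq2 called 4. Rab3d was called in 6 alternatives, among them without mouse 1 (adjusted p = 0.0422) or mouse 3 (0.044). Without the 743 cells of low Malat1 all 8 calls were kept, and Rab11b (0.36, adjusted p = 0.0339) and Rab3d (0.83, adjusted p = 0.0497) were called as well. Rab30, Rab2b and Rab33a reached the filter's limit in 3 of the 4 progenitor-like libraries, and passed it only together with the differentiating libraries, where they were higher. With no filter each was still called, Rab33a at 1.06 (adjusted p = 0.045). Rab7 (0.36, adjusted p = 0.104) and Rab11a (0.32, adjusted p = 0.161) were lost in that setting, which left 6 of the 8 calls. Rab2a was called without mouse 3 (0.0313). Rab3a overlaps Mpv17l2 and Rab6a overlaps Mrpl48 on the opposite strand, Rab2b overlaps Tox4, and Rab30, Rab6b and Rab11a each overlap a predicted gene on their own strand. Whether the counting used strand is not given in the sources used here.

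**Figure D1:**
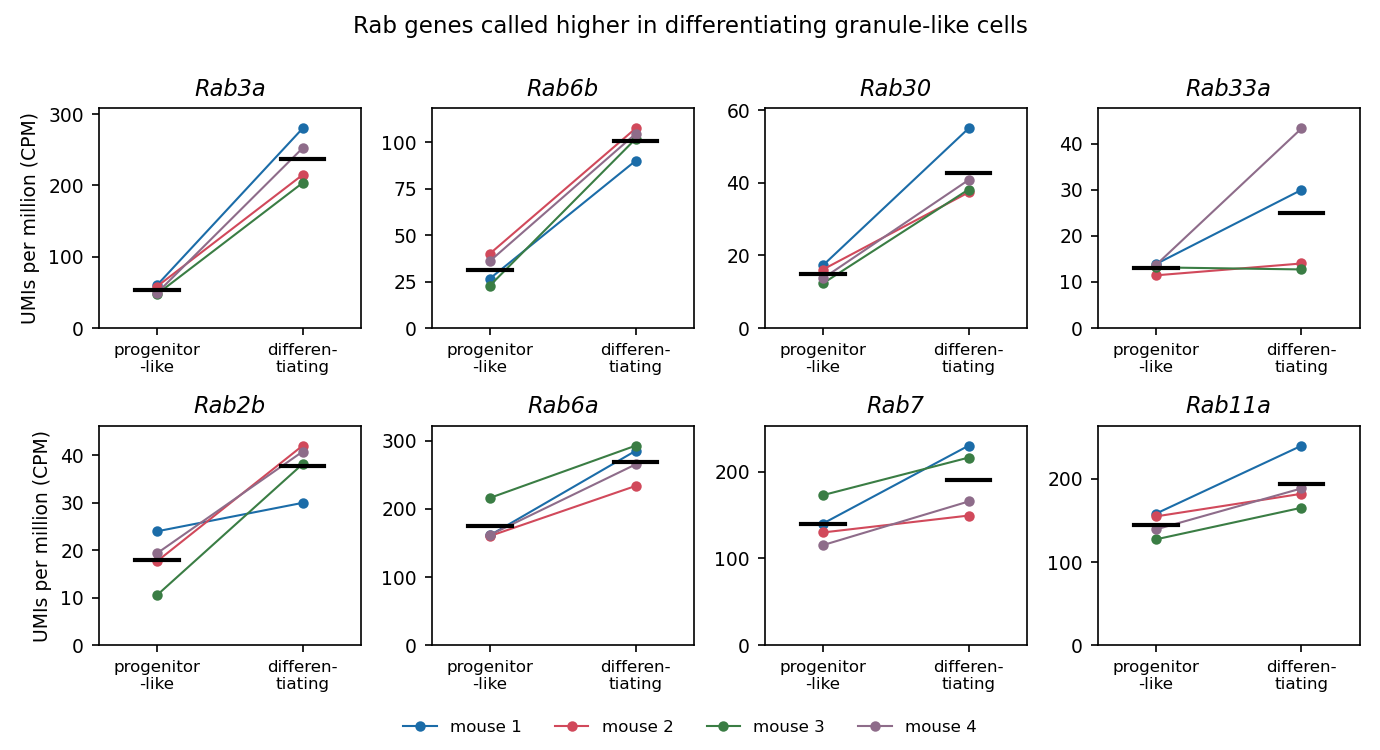
Levels in CPM (linear axes from 0) of the 8 members called higher, in progenitor-like and differentiating granule-like cells. Each line joins the 2 classes of 1 mouse and the black bars are means over 4 mice. Rab3a goes from 47.4 to 60.0 CPM up to 203 to 279.8 CPM, and 1 mouse of Rab33a does not rise.

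**Figure D2:**
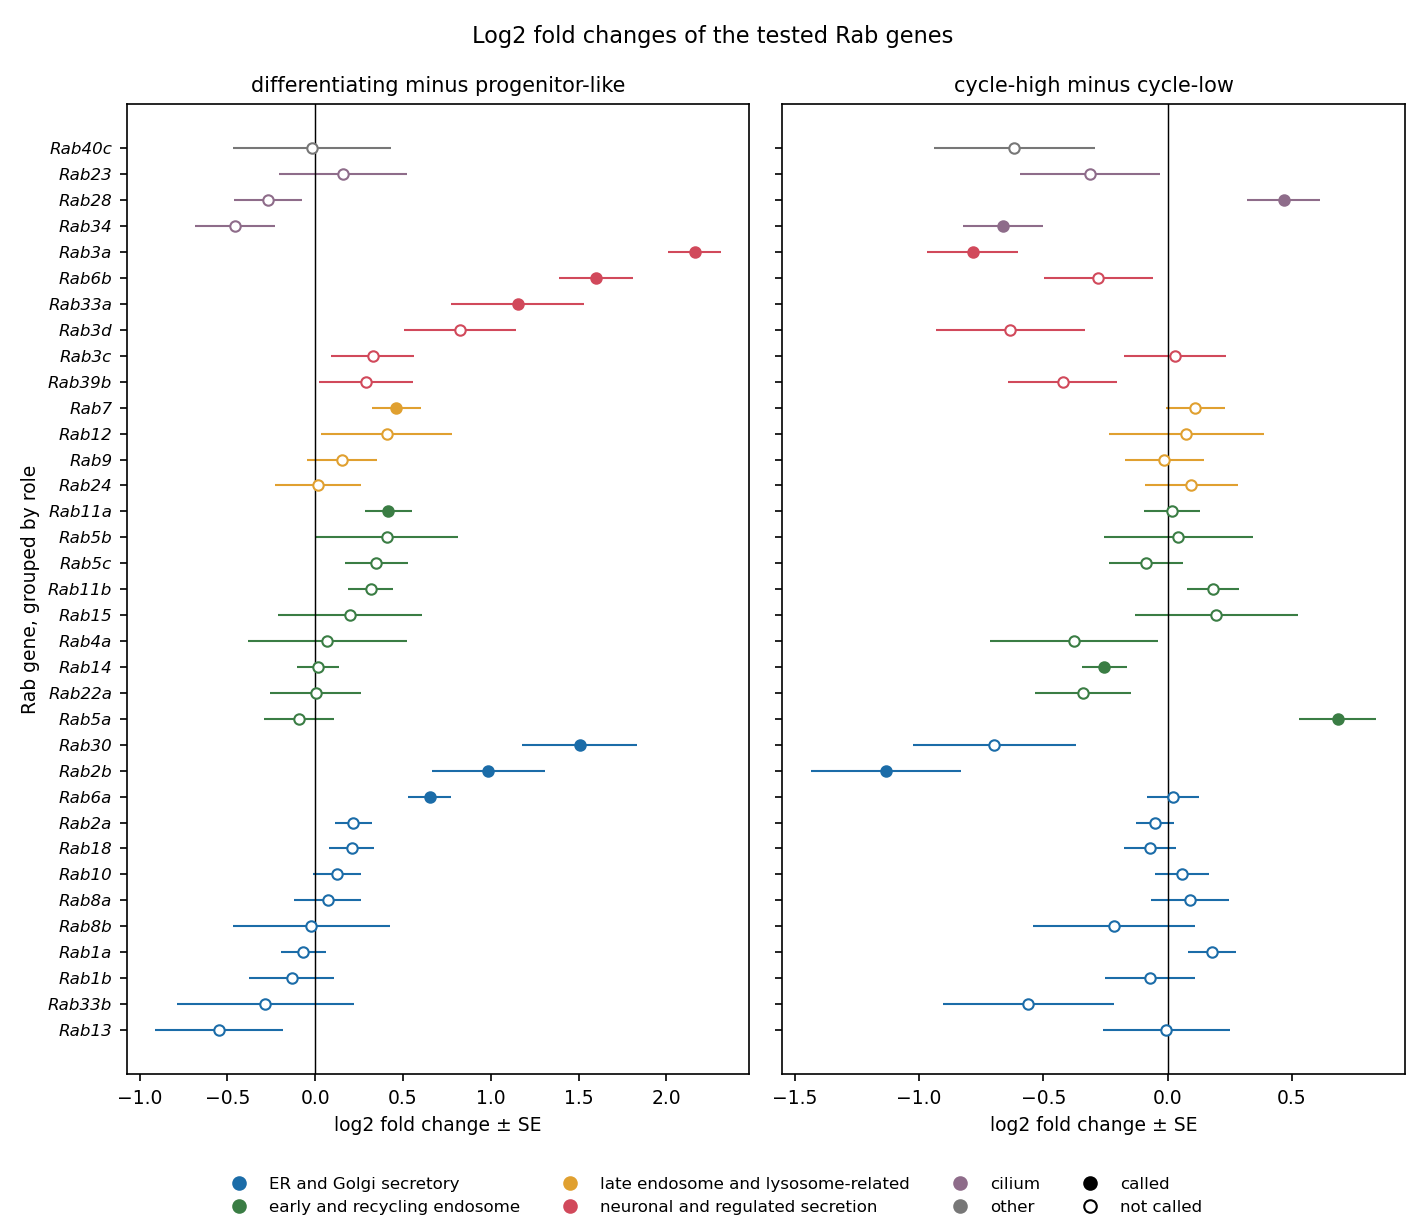
Log2 fold changes ± SE of the tested members in the comparison of differentiating with progenitor-like cells (left, 35 members) and of cycle-high with cycle-low progenitor-like cells (right, 34 members), grouped and coloured by role. Filled points passed the test. On the left all 8 filled points are above 0, led by Rab3a at 2.16. On the right 2 are above 0 and 4 below.

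Start regions of the called members were read for 2 E-box forms, the DNA motif bound by basic helix-loop-helix factors such as Atoh1 and Neurod1, and for the consensus of the GLI factors that act at the end of the hedgehog pathway. RefSeq windows on GRCm38.p6 (250 bases before to 50 after a start, 60 windows) were matched by symbol for 48 of the 59 members. On both strands, CAGCTG was found in 14 of 60 member windows (23.3%) and in 16.3% of all 32851 windows of that length, and CAGATG in 13.3% and 17.2%. G and C made up a median of 61.15% of the bases in member windows and 52.7% in all windows. The part of base composition in these shares was not tested. The GLI letters GACCACCCA were in 1 member window, that of Rab31, and in 0.253% of all. Of the 7 members called higher in differentiating cells that have a window, 5 held CAGCTG, beside 14 of all 48 members with a window, these 5 included. The share among all genes called higher was not computed. The 5 are shown because these genes were called in the same comparison, as 30 bases around the motif in capitals, 5′ to 3′ on the gene's strand.
Rab3a: gcgtttcactgaCAGCTGggggatcaaggg
Rab6b: ggggcccggccgCAGCTGgggagtcagggg
Rab6a: cacctcagttagCAGCTGcctgccctccgc
Rab2b: cagtctcgatccCAGCTGcccgaagggtcg
Rab11a: caccgggtccggCAGCTGaagctcctcgct
The Rab31 window is given with its GLI letters in capitals, read on the opposite strand.
Rab31: agtcagatgtTGGGTGGTCactggaggccg
In order, these lie at chr8:70754905-70754934 (+), chr9:103111990-103112019 (+), chr7:100607461-100607490 (+), chr14:52279484-52279513 (-), chr9:64737709-64737738 (-) and chr17:65772779-65772808 (-). The Rab3a letters begin 185 bases before the downstream of its 2 RefSeq starts. A match is a description of the letters in a window and no evidence of binding.

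Shares among paralogs do not depend on the scaling between libraries. Rab6b made up 14.2, 20.0, 9.56 and 18.2% of the UMIs of Rab6a and Rab6b in progenitor-like cells and 24, 31.5, 25.8 and 28.3% in differentiating cells. The share was higher in every mouse, by 11.9 ± 2.99 percentage points (SD, n = 4). Rab3a made up 44.1, 46.3, 43.2 and 40.2% of the UMIs of the Rab3 genes and then 72.7, 61.3, 72.7 and 75.0%, a difference of 27.0 ± 8.42 points with no overlap. The share of Rab5c among the Rab5 genes went from 47.2 ± 5.59 to 52.5 ± 5.40%, higher in all 4 mice with overlapping ranges. Each of these 3 had p = 0.13 in the exact two-sided sign-flip permutation test over mice, the smallest that 4 mice can give, and 0.417 adjusted over 10 pairs. The other 7 pairs went both ways among mice or had mice at equal shares. For Rab11b among Rab11a and Rab11b the shares were 53.2 ± 1.76 and 52.8 ± 5.05%. Rab27b among the Rab27 genes could not be computed, since differentiating cells had no UMI of either.

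**Figure D3:**
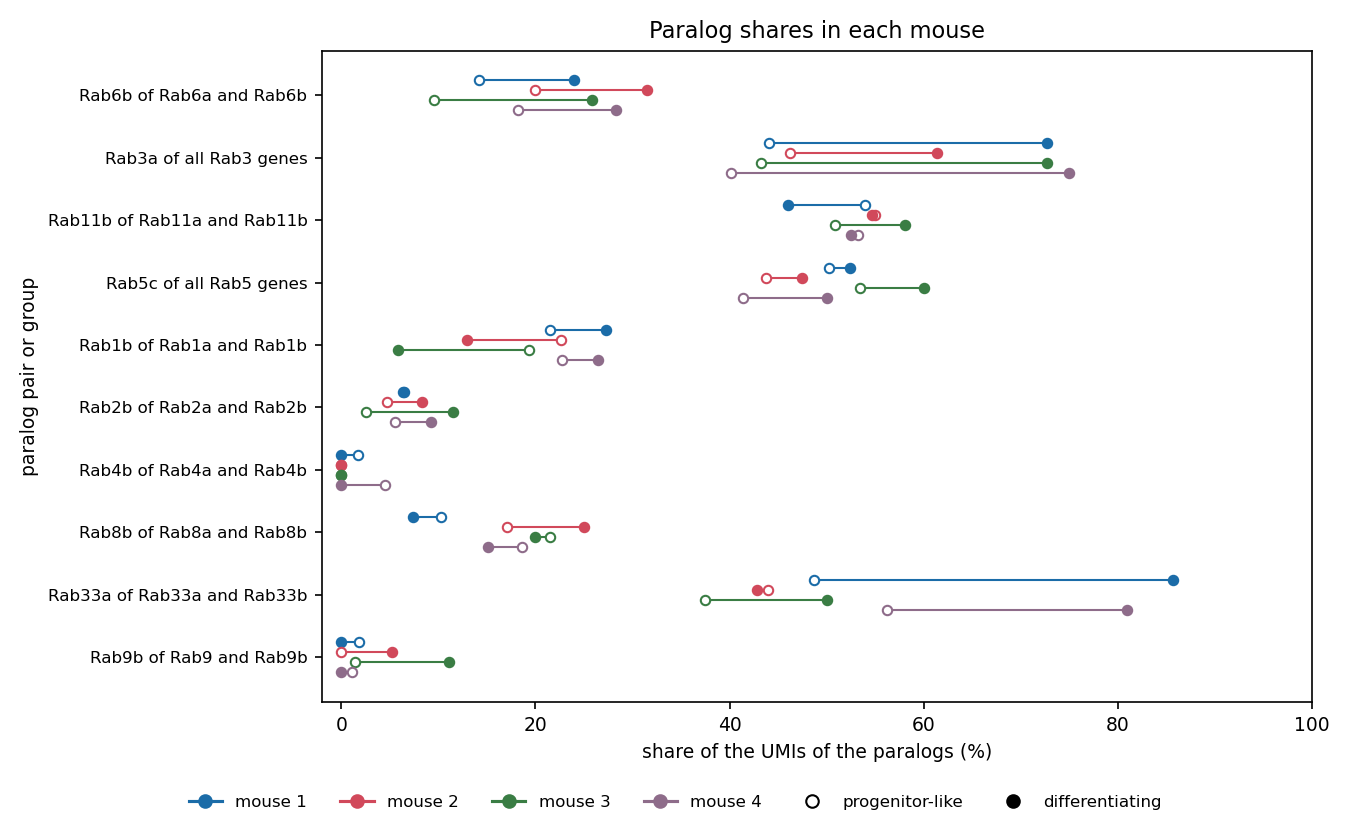
Share (%) of 1 paralog in the UMIs of its pair or group, for each of 4 mice, in progenitor-like (open) and differentiating (filled) cells. All 4 lines run to the right for Rab6b, Rab3a and Rab5c, with Rab3a moving by 27.0 points on average.

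Within the progenitor-like class, cells with many cell-cycle transcripts were set against those with few. Cells of at least 1000 UMIs were ranked in each mouse by the share of their UMIs on S and G2M genes and cut into 3 equal groups, and the top group (cycle-high, 936 cells) was compared with the bottom group (cycle-low, 938 cells). This is a range of a score and not a cell type. Of 34 members tested, 2 were higher and 4 lower in cycle-high cells (17.6% called, beside 27.6% of 7085 genes: 14.4% higher and 13.3% lower). The share of members called was below that of all genes. The members' median log2 fold change was -0.06, and that of all genes -0.03.

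Rab5a, which controls fusion of early endosomes, was at 45.7, 79.4, 57.8 and 63.5 CPM in cycle-low and 93.2, 108, 84.9 and 101 CPM in cycle-high cells. The groups did not overlap, and the log2 fold change was 0.68 ± 0.15 (adjusted p = 2.68e-04, edgeR). Its paralogs Rab5b and Rab5c were at 0.04 ± 0.30 and -0.09 ± 0.15, not called. Rab28, a cilium member, was at 73.4, 75.7, 71.3 and 67.6 CPM and then 103, 105, 82.7 and 99.05 CPM, also without overlap, with 0.47 ± 0.15 on the log2 scale (adjusted p = 0.0111).

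Rab34, which is needed for building cilia in many cells, was at 95.5, 72.0, 112 and 71.6 CPM in cycle-low and 67.6, 43.4, 69.3 and 40.8 CPM in cycle-high cells. All cycle-low values lay above all cycle-high values, and it fell by 0.66 ± 0.16 on the log2 scale (adjusted p = 7.78e-04, edgeR). Rab3a was at 73.4, 77.5, 54.4 and 60.8 CPM against 47.1, 34.7, 33.5 and 37.8 CPM, without overlap, and fell by 0.78 ± 0.18 (adjusted p = 4.62e-04). Rab2b was lower in 3 of 4 mice, from 42.9, 24.003, 3.40 and 27.0 CPM to 14.3, 14.5, 6.70 and 12.3 CPM, and fell by 1.13 ± 0.30 (adjusted p = 0.0023). Rab14, which works between Golgi and early endosomes, fell by 0.26 ± 0.09 (adjusted p = 0.025), from 279 ± 34.6 to 231 ± 28.5 CPM (SD), lower in every mouse with overlapping ranges.

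Rab3a and Rab2b were thus called in opposite directions in the 2 tumour cell comparisons, which share progenitor-like cells. Rab6b (-0.28 ± 0.22, adjusted p = 0.379), Rab7 (0.11 ± 0.12, adjusted p = 0.535) and Rab23 (-0.31 ± 0.28, adjusted p = 0.452) were not called by cell cycle. Rab27a had 3 and 4 UMIs. The cycle-high cells were deeper, with a median of 2845.5 UMIs against 2191.5, and held 18.4 against 20.7 UMIs per 10000 of the young-neuron markers; the part of either in these values was not tested. Cells were also thinned to 1000 UMIs each, and the groups were cut again from the thinned counts (898 and 1006 cells). There 2 members were called (Rab3a and Rab34) of 20 tested, and Rab5a had a log2 fold change of 0.31 (adjusted p = 0.443, edgeR). This setting thus changed both the depth and the cells compared. DESeq2 called 0 of the 6, and the fit without the replicate block called 2. Rab14 was lost without mouse 1 (adjusted p = 0.111), mouse 2 (0.208) or mouse 3 (0.0566) and Rab28 without mouse 4 (0.0722).

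**Figure D4:**
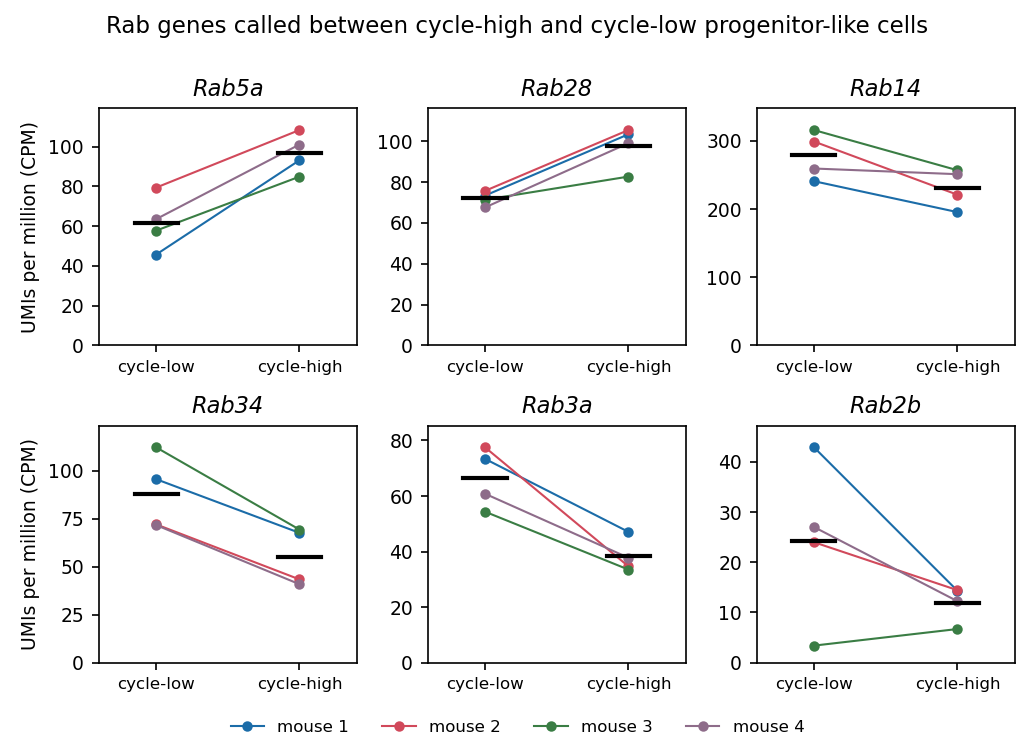
Levels in CPM (linear axes from 0) of the 6 members called between cycle-low and cycle-high progenitor-like cells, with 1 line per mouse and black bars at the means of 4 mice. Rab5a and Rab28 rise in every mouse, Rab14, Rab34 and Rab3a fall in every mouse, and Rab2b falls in 3 of 4.

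Compared with granule-lineage-like cells, the other cell types differed in a few members each. In oligodendrocyte-lineage-like cells 3 of 35 members were higher and 0 lower (8.57%), beside 12% of 7340 genes called higher, 10.6% called lower and 22.6% in either direction. Rab31, an endosomal member of the Rab5 subfamily, was at 61.6, 68.7, 247 and 81.3 CPM in these cells and at 10.1, 11.7, 18.9 and 11.6 CPM in granule-lineage-like cells. The groups did not overlap, and the log2 fold change was 2.88 ± 0.43 (adjusted p = 1.32e-08, edgeR), from 28 UMIs. The call was kept in all 16 alternatives. Rab31 reached the filter's limit in all 4 libraries of this class and in 1 of the 4 granule-lineage libraries, so it entered the test through the class where it was high; with no filter the log2 fold change was 2.63 (adjusted p = 3.06e-08). In the class, the cluster of precursor character (119 cells) held 26 of the 28. Its close relative Rab22a was at -0.13 ± 0.45 (adjusted p = 0.885).

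Rab33a had 0, 91.6, 0 and 73.2 CPM in oligodendrocyte-lineage-like cells, against 14.99, 11.7, 13.1 and 17.5 CPM, and was higher in 2 of 4 mice and at 0 in the others. Its log2 fold change was 1.85 ± 0.51 (adjusted p = 0.00353), from 17 UMIs, of which 14 lay in a cluster of 24 cells led by myelin genes such as Mag and Cnp. Mouse 4 gave 87.5% of that cluster. Rab34 was at 164, 126, 27.4 and 146 CPM against 86.1, 60.8, 80.4 and 57.8 CPM, higher in 3 of 4 mice, at 0.85 ± 0.32 (adjusted p = 0.0391). Rab34 was lost without mouse 1 (adjusted p = 0.1), mouse 2 (0.164) or mouse 4 (0.456), and Rab33a without mouse 2 (0.193). At no more than 5% mitochondrial UMIs (96 cells, 3 mice) the log2 fold change of Rab34 was 0.09 (adjusted p = 0.947), after thinning 0.24 (0.835) and without the 743 cells of low Malat1 0.72 (0.0787). Median mitochondrial shares were 6.45% in this class and 3.10% in granule-lineage-like cells, and Malat1 stood at 643 and 138 UMIs per 10000. Rab33a passed the filter with 2 libraries of each class over its limit, and was not tested without the 743 cells. Rab3a, Rab6b, Rab7 and Rab23 were at 0.47, 0.10, 0.31 and 0.29 on the log2 scale, none called.

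In astroglia-like cells 1 of 32 members was higher and 1 lower (6.25% called, beside 4.36% of 6899 genes, 2.87% higher and 1.49% lower). Rab31 was at 73.6, 17.6, 36.0 and 37.9 CPM, above the granule-lineage value of its own mouse in all 4 though the ranges overlapped. Its log2 fold change was 1.95 ± 0.57 (adjusted p = 0.0196, edgeR), from 13 UMIs. It reached the filter's limit in all 4 astroglia-like and in 1 of the 4 granule-lineage libraries, and so was tested because it was high in the former; with no filter it was not called (1.75, adjusted p = 0.0682). Rab34, from 6 UMIs, was at 12.3, 17.6, 71.9 and 15.2 CPM, lower in every mouse with mouse 3 near its granule-lineage value of 80.4 CPM. It fell by 1.66 ± 0.54 on the log2 scale (adjusted p = 0.046), and the pooled counts gave a ratio of 0.287 (95% exact interval 0.105 to 0.627, counting error only). Rab23 had 0 UMIs in the 153 astroglia-like cells and 199 in granule-lineage-like cells, which makes it at least 2.14-fold lower over the class with a floor of 3 counts, and the test missed the threshold (adjusted p = 0.055). It reached the filter's limit only in the 4 granule-lineage libraries, so it was tested through the class where it was high. With no filter it was called lower (adjusted p = 0.0417, edgeR). Rab7 was at 0.64 ± 0.23 (adjusted p = 0.0986), Rab3a at 0.41 ± 0.34 and Rab6b at -0.45 ± 0.56.

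The astroglia-like values rest on few molecules and a class of low Malat1: 73.9% of its cells had under 30 Malat1 UMIs per 10000, against 21.6% of granule-lineage-like cells, and markers of the granule lineage summed to 14.7 UMIs per 10000 there and 20.0 in granule-lineage-like cells. In the progenitor-like cluster of low Malat1, Rab34 was at 7.21 CPM (8 UMIs in 743 cells), while the other progenitor-like clusters held 51.2 to 111 CPM of it. Without that progenitor-like cluster both astroglial calls were kept, Rab31 at 2.04 and Rab34 at -1.77. Rab23, at 0 UMIs in the astroglia-like class, was then called lower as well (adjusted p = 0.0433). Without the astroglia-like cluster of low Malat1, which left 66 cells in 3 mice, Rab31 was at 2.16 (adjusted p = 0.21) and Rab34 at -1.27 (adjusted p = 0.49). Both calls ended without mouse 1 (adjusted p of 0.435 for Rab31 and 0.36 for Rab34) and without mouse 4 (0.175 and 0.266), and Rab34 also without mouse 2 (0.143). No member was called with DESeq2 or with doublets kept. Rab7 was called without mouse 3 (adjusted p = 0.0493) and with cell cycle regressed out (0.013). Rab23 was called in 5 alternatives, the one without the progenitor-like cluster among them, down to an adjusted p of 0.0402. The others were DESeq2 size factors in edgeR, no filter on low counts, Leiden resolution 2 and leaving out cells of low Malat1. Of these 5, only the resolution changed the astroglia-like class itself, from 153 to 165 cells. The Rab23 value thus lies close to the threshold.

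In myeloid-like cells 1 of 29 members was higher and 1 lower (6.90% called, beside 14.3% of 6283 genes, 3.72% higher and 10.6% lower). The median log2 fold change of all genes was -1.09 in this comparison, so values are read against that shift; the members' median was -0.40. Rab32, a regulator of lysosome-related organelles, was at 134, 123, 120.2 and 41.8 CPM against 2.09, 0.935, 1.64 and 0.33 CPM. The groups did not overlap. Only 6 UMIs in 37 myeloid-like cells against 11 in 3691 granule-lineage-like cells gave the pooled ratio of 80.5 (95% exact interval 24.4 to 237, counting error only), with a log2 fold change of 5.85 ± 0.89 (adjusted p = 1.37e-07, edgeR) that was kept in all 13 alternatives that tested it. No granule-lineage library reached the filter's limit and all 4 myeloid-like libraries did, so Rab32 entered the test only through the class where it was high; with no filter the log2 fold change was 5.501 (adjusted p = 0.00132). Of the 4 fits that leave out a mouse, only the one without mouse 4 tested it. Its relatives Rab38 and Rab29 had 0 and 1 UMI in the class.

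Rab34 had 0 UMIs in myeloid-like cells and 650 in granule-lineage-like cells, at least 1.47-fold lower over the class with a floor of 3 counts (adjusted p = 0.0401). That bound does not lie beyond the all-gene median of -1.09 on the log2 scale. No myeloid-like library reached the filter's limit for Rab34 and all 4 granule-lineage libraries did. It thus entered the test only through the class where it was high. With no filter it was still called (adjusted p = 0.0192, edgeR). Leaving out any 1 mouse ended the call, with adjusted p of 0.114 to 0.23. Scaling by DESeq2 size factors in edgeR also ended it (adjusted p = 0.077), as did thinning (0.288). The neuronal members Rab6b, Rab3c and Rab39b and the cilium member Rab23 also had 0 UMIs there, and none was called. Rab7 was at 403, 370, 120.2 and 543 CPM against 146, 132, 176 and 122 CPM, higher in 3 of 4 mice at 1.12 ± 0.45 (adjusted p = 0.0769). It was called without mouse 3 (0.0363) and without the replicate block (0.0219). With DESeq2 size factors in edgeR it was called too, at 1.45 (adjusted p = 0.0143), so its call changed with the scaling.

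**Figure D5:**
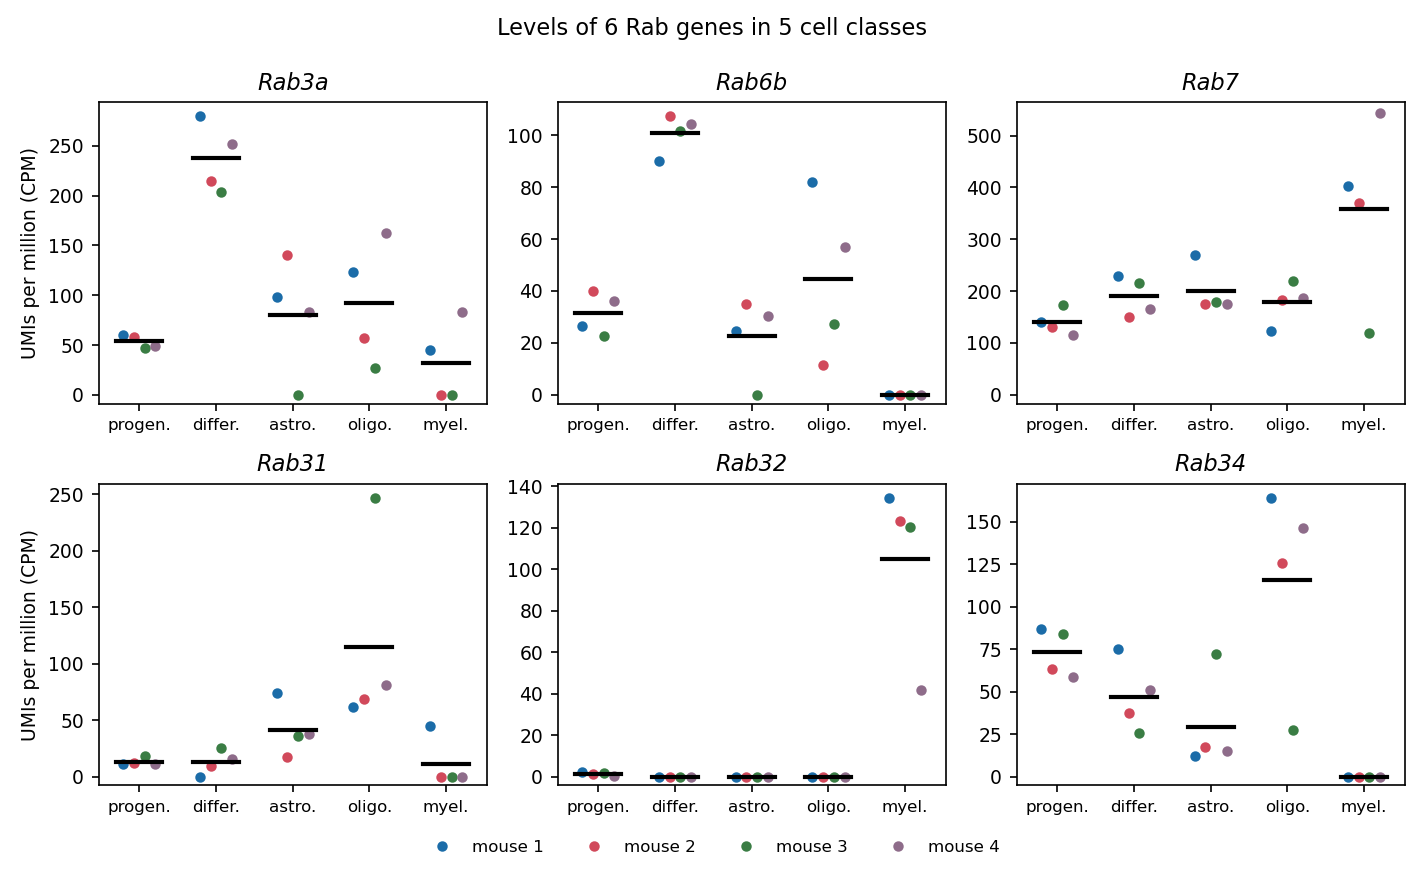
Levels in CPM (linear axes) of 6 members in progenitor-like, differentiating, astroglia-like, oligodendrocyte-lineage-like and myeloid-like cells, 1 point per mouse with the mean of 4 mice as a bar. Rab3a and Rab6b are highest in the differentiating class, Rab31 in the oligodendrocyte-lineage-like class, where mouse 3 stands at 247 CPM, and Rab32 in the myeloid-like class; Rab34 is at 0 in the latter.

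The proteins that load, hold and switch off Rab GTPases were followed through 4 lists of partner genes. In differentiating against progenitor-like cells, 3 of 8 tested genes of prenylation and membrane cycling were higher and 1 lower. Rabac1 and Arl6ip5, both prenylated Rab acceptor family genes, rose by 0.81 ± 0.14 (adjusted p = 2.49e-07, edgeR) and 0.70 ± 0.17 (adjusted p = 5.88e-04) on the log2 scale, each in all 4 mice. Gdi2, a widely expressed GDI, fell by 0.33 ± 0.11 (adjusted p = 0.021), also in all 4 mice. Among GTPase activating proteins 2 of 13 were higher, Rabgap1l by 1.503 ± 0.42 and Rabgap1 by 0.56 ± 0.21, and among effectors 2 of 17, the dynein adaptor Bicd1 by 0.87 ± 0.17 and Rufy3, which acts in axon growth, by 0.61 ± 0.14. None of 9 exchange factors was called by edgeR, and 1 had an unadjusted p under 0.05. Called in either direction were 50% of the membrane cycling genes, 15.4% of the GTPase activating proteins and 11.8% of the effectors, beside 20.2% of all genes.

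By cell cycle these 3 genes were called in the reverse directions, in a comparison that shares progenitor-like cells with the first. Gdi2 rose by 0.40 ± 0.08 in cycle-high cells (adjusted p = 2.02e-05, edgeR), and Rabac1 and Arl6ip5 fell by 0.39 ± 0.12 and 0.75 ± 0.15. That made 1 higher and 3 lower of 6 tested genes of membrane cycling, beside 2 lower of 10 GTPase activating proteins (Tbc1d16 and Tbc1d17), 0 of 10 exchange factors and 0 of 17 effectors. These are 66.7% of the membrane cycling genes and 20.0% of the GTPase activating proteins, beside 27.6% of all genes. In oligodendrocyte-lineage-like cells Rabac1 rose by 1.01 ± 0.24 and Gdi2 fell by 0.66 ± 0.23 (1 higher and 1 lower of 8). The effector Osbpl1a rose there by 2.71 ± 0.44 and Bicd2 by 1.64 ± 0.55, while Ehbp1, an effector that links endosomes to actin, fell by 1.77 ± 0.34 (2 higher and 1 lower of 18). Tbc1d16 fell by 1.23 ± 0.36, 1 of 12 GTPase activating proteins, and 0 of 11 exchange factors were called. The shares called were 25%, 16.7% and 8.33% of these lists with a call (membrane cycling, effectors and GTPase activating proteins), beside 22.6% of all genes. In myeloid-like cells 2 of 13 effectors were lower, Ehbp1 (0 against 1719 UMIs) and Rufy3 (1 against 1197 UMIs), with 0 called of 6, 8 and 8 in the other lists; 15.4% of the effectors were thus called, beside 14.3% of all genes. In astroglia-like cells 0 of the 6, 8, 11 and 17 tested genes of the 4 lists were called by edgeR, and 3 had an unadjusted p under 0.05.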

How the data were processed

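The authors deposited raw UMI counts for every gene in every cell, as whole numbers with no scaling. The submitters' processing notes list Cell Ranger 2.0.2, Seurat and the mm10 build without saying what each was used for. The files hold 5670 barcodes, and the series' design text states 4749 cells. Filters of 500 or more detected genes (4620 cells left) and no more than 10% mitochondrial UMIs (4137 left) were applied, and 36 cells marked by Scrublet (0.870%, 30 of them in mouse 3) were removed. Per the labels' protocols, mouse 1's library was run again to deepen it.

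Clustering used scanpy 1.11.5 with leidenalg 0.10.2 (2000 variable genes, 30 components, 15 neighbours, resolution 1), with the Rab genes, partner lists, S, G2M, mitochondrial, ribosomal, Xist and Y-linked genes held out, so the classes were not drawn on the members. Clusters with at least 3 markers of another cell type were clustered again and named from them. All remaining clusters count as granule-lineage-like if at least 3 markers of their class were each detected in 10% or more of their cells. A remaining cluster is differentiating if its young-neuron markers had a median log2 ratio to that lineage's average of 0.5 or more and above that of its progenitor markers, and progenitor-like if not.

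The UMI counts of each class in each mouse were added up, and edgeR 4.0.16 was applied (R 4.3.3; TMM, filterByExpr, quasi-likelihood test, mouse as a block, Benjamini-Hochberg over all genes tested, 0.05). The SE was derived from the fold change and the F statistic of the fit and is not a spread over mice. The classes are paired because they share an animal and a library, and their deviations from the class means correlated at 0.173 to 0.447 in the 2 tumour cell comparisons and 0.0189 to 0.202 in the others. At least 10 cells per class and mouse were required (5 for myeloid-like cells). The model was tested on simulated data. DESeq2 1.42.0, other filters, resolutions, depths and left-out mice were alternatives. Gene coordinates are of GRCm38.

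The members, roles and partner lists were chosen with earlier results of these data known. The text names every called member, Rab7, Rab6b, Rab3a, Rab27a, Rab23 and Rab34, the paralogs of called members and up to 8 called partner genes per comparison, of which 1 is counted in its list and not reported here by name. In 3′ UMI data levels do not scale with transcript length. In a summed class, a lower count cannot tell fewer expressing cells from fewer transcripts per cell.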

Additional observations from a re-analysis of the deposited data

Results flagged for a closer look

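Among 58 groups of 4 mice examined for a mouse standing apart, 5 had one whose gap to the others exceeded Dixon's 95% limit for 4 values, where chance gives about 1 in 20. Mouse 3 gave 3 of the 5. In progenitor-like cells its Rab6a level was 216 CPM against 160.0 to 162 CPM in the other mice. In astroglia-like cells its Rab34 level was 71.9 CPM against 12.3 to 17.6 CPM. This value is 1 UMI of mouse 3 in each astroglia-like cluster, of 6 UMIs in the class. In oligodendrocyte-lineage-like cells its Rab31 level was 247 CPM against 61.6 to 81.3 CPM. In myeloid-like cells mouse 4 had 41.8 CPM of Rab32 against 120.2 to 134 CPM. The counts behind these levels were 3, 1, 1 and 1 UMIs in mice 1 to 4. In differentiating cells the share of Rab3a among the Rab3 genes was 61.3% in mouse 2 against 72.7 to 75.0%.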

How the results depend on the processing

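No called or named member changed direction past the threshold under the alternatives run. Of 8 members called between differentiating and progenitor-like cells, 5 were called without the replicate block, 4 with DESeq2, 4 at most 5% mitochondrial UMIs, 2 at 1000 genes per cell, and 4 to 9 when a mouse was left out. Of 6 by cell cycle, 2 were called without the replicate block, 0 with DESeq2 and 2 after thinning to 1000 UMIs. For astroglia-like cells (2) the counts were 1 without the replicate block, 0 with DESeq2, 0 at 5% mitochondrial UMIs, 1 at Leiden resolution 0.5, 0 after thinning, 0 with Rab genes kept in the clustering, 0 with doublets kept, 0 without the low-Malat1 cluster, and 0 to 3 leaving out a mouse. For oligodendrocyte-lineage-like cells (3) they were 1 with DESeq2, 0 after thinning, 1 without cells of low Malat1, 1 without the progenitor-like cluster of low Malat1, and 1 to 3 leaving out a mouse. For myeloid-like cells (2) they were 4 without the replicate block, 1 with DESeq2, 0 after thinning, and 0 to 1 leaving out a mouse, where Rab32 was tested only without mouse 4. Paralog shares with 1 direction in every mouse (3) were 1 at 1000 genes per cell, 5 with cell cycle regressed out, 5 after thinning, and 3 to 5 leaving out a mouse. The block changed no other call count by over 1.5 times. The causes were not tested. The stricter filters and thinning leave fewer cells or genes, and the part of this in the changes was not tested either. The limit of 1000 genes was not run for astroglia-like, oligodendrocyte-lineage-like and myeloid-like cells, which then had too few mice. Keeping doublets and leaving out low-Malat1 clusters were chosen after seeing the data. Depth limits the rare classes: most calls there rest on 6 to 38 UMIs, and a member not called there is not shown to be unchanged.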
